A study of Mus musculus with 3 samples.

Results

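The comparison described here is that of naive CD4+ T cells cultured with the cytokine IL-21 against cells cultured with medium, 2 of the 3 arrays of the series. The animals that gave the cells were C57BL/6 mice of wild type genotype, aged 8 weeks. The control culture received vehicle, and the third array, whose values are given for reference, held cells cultured with IL-6 and TGFb1. Doses, time in culture, pooling of animals and stimulation of the antigen receptor are not stated in the labels. Each culture was measured on 1 array, so differences carry no replicate check, error or p-value, and each sets 1 library against another. Genes were taken from probe sets with exactly 1 gene symbol, and the brightest probe set stood for the gene. A gene was compared where its highest intensity over the 3 arrays reached the median of all values, 187, which 11003 of 19935 genes did. This rule uses the brightness of a gene and not the difference between the cultures, but a gene dim in medium could enter only through a treated array. Differences of the third array from medium would share the medium array, so only its levels are given.

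IL-21 is made mainly by helper T cells and natural killer T cells. It binds a receptor built from its own chain, IL-21R, and the common gamma chain, and it signals through JAK1 and JAK3 to STAT3 and, less strongly, to STAT5. In CD4+ T cells it is known for supporting follicular helper and Th17 cells and for inducing its own gene. SOCS3, which STAT3 induces, blocks further signalling through several cytokine receptors of this kind.

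With IL-21, 65 genes (0.591% of those compared) were past 2-fold, of which 53 (0.482%) were higher than in medium and 12 (0.109%) were lower. At 1.5-fold the counts were 224 higher (2.04%) and 55 lower (0.500%). These shares are the scale for the counts of list members given below. The largest difference belonged to Il21 itself, and the higher side further held genes of cytokine and leukotriene receptors, granule proteins, secreted binding proteins and STAT3-associated regulators. The lower side held Eomes and Ifng of the Th1 and cytotoxic list, of which 4 other members were on the higher side. It also held the surface genes Cd80, Cd83 and Plaur. Differences are given as log2(intensity + 1) with IL-21 minus the same with medium, so 1 is 2-fold higher and -1 is 2-fold lower.

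**Figure D1:**
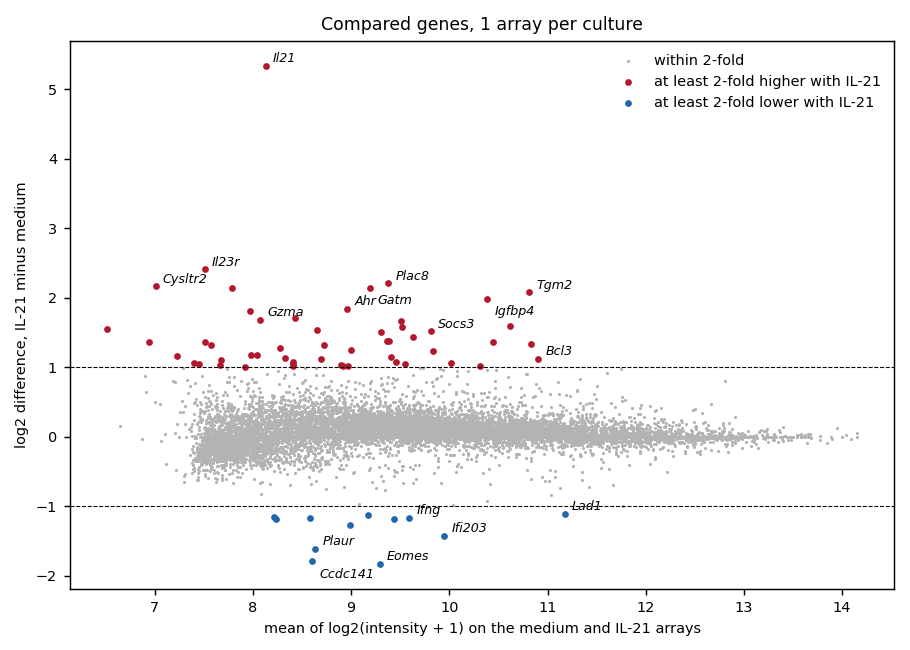
Log2 difference between IL-21 and medium (y axis) against the mean log2(intensity + 1) of both arrays (x axis) for the 11003 compared genes, 1 point per gene, with dashed lines at 2-fold. The 53 higher genes lie at all but the brightest levels, Il21 stands alone at 5.34, and the 12 lower genes lie between -1.83 and -1.11.

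The cells carried the markers of their label. All 10 measured T cell markers were above the array median in both cultures, with Cd4 at 6858 in medium and 6765 with IL-21, and Cd3e at 6294 and 6434. Cd8a was dim, at 163 and 145, while Cd8b1 read 810 and 731. The summed intensity of the T cell list was 47582 in medium, 49853 with IL-21 and 49533 on the third array. None of the 8 natural killer, 10 neutrophil or 8 mast cell and basophil markers reached the array median in either culture. Of 12 B cell and plasma cell markers 2 did so in each culture, namely Cd79b and Sdc1, and of 12 monocyte and macrophage markers 1 in each. Summed intensities of the B cell list were 1612 and 1646, those of the macrophage list 1710 and 1636, and those of the natural killer list 712 and 727. Proliferation genes were bright in both cultures: Mki67 read 3612 and 3925, and Top2a 4678 and 5187 on the 2 arrays. Fewer cells of a type and less RNA per cell cannot be told apart in these bulk samples.

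The IL-21 receptor and its signalling chain were well above the array median in medium. Il21r had an intensity of 3391 in medium, 4650 with IL-21 and 4047 on the third array. Jak2, a kinase used by several cytokine receptors, showed the largest difference of the 10 compared receptor, JAK and STAT genes, from 2249 to 3738 (0.73), with 2969 on the third array. Stat3, the main transcription factor of the pathway, went from 3455 in medium to 4332 with IL-21 (0.33). Stat5a was at 2552 and 3205 (0.33), Stat5b at 1945 and 2203 (0.18), and Jak1 at 3410 and 3979 (0.22). In this list 9 of the 10 genes were above 0, against 59.8% of all compared genes, and Tyk2 was exactly equal on both arrays. Of these 10 genes 1 passed 1.5-fold and none passed 2-fold. The list median was 0.20, against 0.04 for all compared genes. Jak3 and Il2rg had no probe set with exactly 1 symbol among those compared and were not analysed here.

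**Figure D2:**
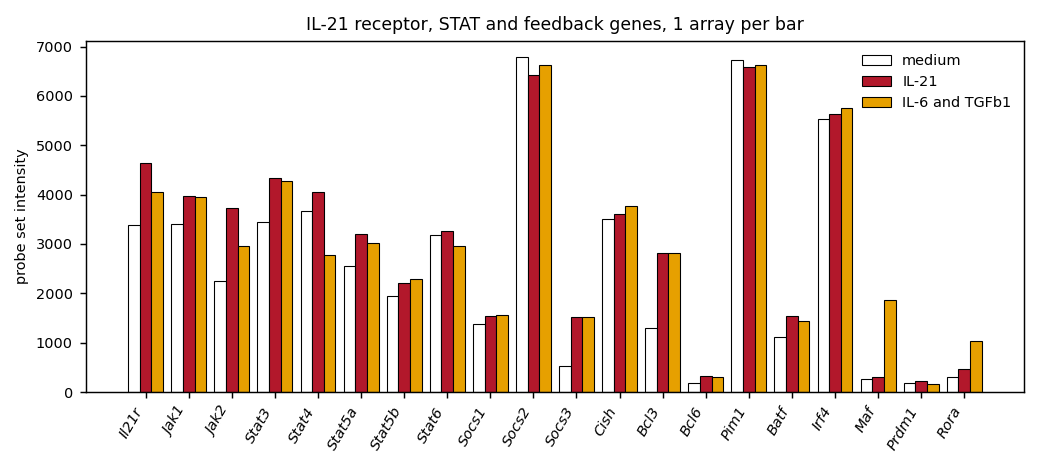
Probe set intensity (linear y axis from 0) of IL-21 receptor, JAK, STAT and feedback genes on the 3 arrays, 1 bar per array. Socs3 and Bcl3 stand at least 2-fold above medium with IL-21, whereas Socs1, Socs2, Cish, Pim1 and Irf4 differ little between the bars, and Maf is high on the IL-6 and TGFb1 array alone.

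Feedback genes of cytokine signalling differed from medium to unequal extents. Socs3 read 530 in medium and 1516 with IL-21, and the third array gave 1517. The dimmer of its 2 probe sets read 224 and 405, a difference of 0.86 against 1.52 for the brighter. Socs1, another inhibitor of JAK kinases, was at 1383 and 1534 (0.15), and Cish, a target of STAT5, at 3508 and 3604 (0.04). Bcl3, a nuclear partner of NF-kB, went from 1303 to 2828, with 2820 on the third array. Sbno2, a transcriptional corepressor known as a STAT3 target in myeloid cells, read 595, 1394 and 1242. Bcl6, the repressor of follicular helper cells, was dim in medium at 188 and read 322 with IL-21 (0.77), and Nfil3, a basic leucine zipper factor, read 843 and 1616 (0.94). Batf (0.46) and Irf4 (0.03), which act together at many T cell genes, and Prdm1 (0.28), which encodes Blimp-1, were within 1.5-fold. Of the 28 compared STAT3-associated and feedback genes, 6 passed 2-fold and 9 passed 1.5-fold on the higher side and none passed 1.5-fold on the lower, with a median of 0.29.

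Promoter sequence was examined because these genes were higher in the same culture. The windows, from RefSeq on build GRCm38.p6, run from 250 bases before to 50 after an annotated start, and 40 of the 53 higher and 11 of the 12 lower genes had at least 1. The letters TTCNNNGAA, the palindrome that STAT dimers commonly bind, occurred in 9 of 50 windows of the higher genes and 1 of 12 of the lower genes (8.33%), against 6.79% of the windows of all compared genes and 8.30% of all windows in the table. The windows with a match belonged to 7 higher genes, namely Socs3, Lilr4b, Ctla2a, Sbno2, Il18r1, Moxd1 and Ifitm3, and to 1 lower gene, Ifng. The 250 bases before the start are shown for the feedback gene Socs3, the cytokine receptor gene Il18r1, the receptor gene Lilr4b, Sbno2, and Ifng as the lower gene, 5′ to 3′ on the strand of the gene, with the match in capitals. The windows lie at chr11:117969367-117969616 (minus strand), chr1:40465756-40466005 (plus), chr10:51480362-51480611 (plus), chr10:80101188-80101437 (minus) and chr10:118440796-118441045 (plus).
Socs3: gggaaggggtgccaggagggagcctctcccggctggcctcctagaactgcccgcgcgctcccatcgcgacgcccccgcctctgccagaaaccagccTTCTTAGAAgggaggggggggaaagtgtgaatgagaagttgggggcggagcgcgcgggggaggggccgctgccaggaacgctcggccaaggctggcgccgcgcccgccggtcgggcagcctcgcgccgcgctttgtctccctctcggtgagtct
Il18r1: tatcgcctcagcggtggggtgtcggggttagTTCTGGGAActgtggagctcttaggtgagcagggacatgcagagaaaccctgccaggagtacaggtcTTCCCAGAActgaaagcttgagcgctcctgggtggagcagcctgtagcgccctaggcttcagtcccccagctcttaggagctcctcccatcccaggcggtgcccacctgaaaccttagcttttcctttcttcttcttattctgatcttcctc
Lilr4b: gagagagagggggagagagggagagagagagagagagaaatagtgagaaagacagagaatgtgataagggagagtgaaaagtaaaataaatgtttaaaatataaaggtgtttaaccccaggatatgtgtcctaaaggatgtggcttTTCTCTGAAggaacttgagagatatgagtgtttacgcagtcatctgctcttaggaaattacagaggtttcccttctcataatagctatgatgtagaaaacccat
Sbno2: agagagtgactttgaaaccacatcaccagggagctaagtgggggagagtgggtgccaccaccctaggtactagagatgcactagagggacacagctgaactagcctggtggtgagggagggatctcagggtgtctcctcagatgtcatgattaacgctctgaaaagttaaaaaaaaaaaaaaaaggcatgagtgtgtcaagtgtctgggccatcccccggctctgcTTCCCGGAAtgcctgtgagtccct
Ifng: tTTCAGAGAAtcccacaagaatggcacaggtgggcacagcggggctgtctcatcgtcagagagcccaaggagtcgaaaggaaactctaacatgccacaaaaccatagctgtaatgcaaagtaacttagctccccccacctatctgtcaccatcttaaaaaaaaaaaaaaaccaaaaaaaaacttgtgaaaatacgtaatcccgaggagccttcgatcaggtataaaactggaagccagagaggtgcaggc
The match begins 154 bases before the start in Socs3, 24 in Sbno2, 104 in Lilr4b, and at the far end of the window in Ifng, while Il18r1 holds 2, at 219 and 152 bases. Both strands were searched, and the palindrome reads the same on each.

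Other motifs in the same windows gave a mixed picture. The AP-1 letters TGANTCA occurred in 11 of 50 windows of the higher genes and in 4 of 12 windows of the lower genes (33.3%), against 4.85% for all compared genes. The higher genes with it included Serpinb5, Ecm1, Tnfrsf8, Cst7, Anxa2 and Mt2, and the lower ones were Ifi203, Plaur and Cd80. The letters of an interferon response element were in 6.00% of windows of the higher genes and 2.94% of those of all compared genes, and in 2 of 12 of the lower genes, those of Ifi203 and Eomes. The T-box letters AGGTGNGA were in 8.00% and 4.90%, and in 0 of 12 windows of the lower genes. The Ahr core GCGTG was in 11 of 50 windows of the higher genes and 1 of 12 of the lower genes, against 51.0% of those of all compared genes. Over all windows, whether or not their gene was compared, the shares were 7.81% for the AP-1 letters and 32.4% for the Ahr core. They were 3.44% for the interferon response element and 5.43% for the T-box letters. All motifs were searched on both strands. Lists of 50 and 12 windows are small, some genes have several overlapping windows, and a match of letters is not a binding site.

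Cytokine genes went in both directions. Il21 was among the dimmest features in medium, with an intensity of 43.0 that exceeded 8.45% of probe sets, and reached 1780 with IL-21, above 87.0% of them. Its third-array value was 3073. Because the medium value lies near the bottom of the scale, the difference of 5.34 was 4.67 when every value under 69.0, the 20th percentile over the table, was set to it. Il24, a cytokine of the IL-10 family, went from 116 to 243 and read 155 on the third array. The Th2 cytokine gene Il4 read 198 with medium and 342 with IL-21 (0.79). Ifng, the Th1 cytokine, was lower, at 1153 in medium, 514 with IL-21 and 290 on the third array. Tnfsf11, which encodes RANK ligand, read 1833 and 968 (-0.92), and Lta, which encodes lymphotoxin alpha, 2895 and 1734 (-0.74). Il2, the growth factor of activated T cells, was at 2445 and 2963 (0.28). Il10 did not reach the brightness filter, with 90.8 and 155. Of 25 compared cytokine genes 2 passed 2-fold upward and 1 downward, and 6 and 3 passed 1.5-fold. Il22 was not analysed here.

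A few cytokine receptor genes were past 2-fold, all of them higher. Il23r, the chain that gives the IL-23 receptor its specificity, went from a dim 77.9 in medium to 418 with IL-21, well short of the 1596 of the third array. Tnfrsf8, which encodes the activation receptor CD30, read 480, 1297 and 1112 in the order medium, IL-21, IL-6 and TGFb1. Il18r1, a subunit of the IL-18 receptor, read 174, 395 and 687, and its partner chain Il18rap 180 and 253 (0.49). The IL-7 receptor gene Il7r read 989 and 1481 (0.58). Among 39 compared cytokine receptor genes 3 passed 2-fold and 4 passed 1.5-fold on the higher side, none was 1.5-fold lower, and the median was 0.17. Bmpr1a, a receptor for bone morphogenetic proteins, lay just past the line (169 and 341).

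The receptors for cysteinyl leukotrienes, lipid mediators of allergic inflammation, were both higher with IL-21. Cysltr2 read 59.8 in medium, 271 with IL-21 and 243 on the third array, and Cysltr1 read 133, 466 and 2484. The medium values of both were dim. Of 17 compared lipid mediator and nucleotide receptor genes 15 were above 0, against 59.8% of all compared genes (36.0% to 75.3% by brightness), and 3 passed 1.5-fold. The list median of 0.37 was the highest of the 39 lists described. The proton-sensing receptor gene Gpr65 (0.72) and the sphingosine phosphate receptor gene S1pr4 (0.58) followed. With no brightness filter the list median was 0.13, below the 0.31 of the STAT3-associated list, so this rank holds only among genes that passed the filter. The lists and their members were chosen with earlier results of these data known, so the rank and counts are descriptive only.

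Lilrb4a and Lilr4b, which encode closely related immunoglobulin-like receptors of the family with inhibitory members, formed the only pair of neighbouring compared genes that were both past 2-fold. Lilrb4a read 190, 624 and 580, and Lilr4b 104, 461 and 428. Their probe sets may share sequence, since the genes are close copies, and the split between them is uncertain. The 128 other compared neighbours of the 65 genes past 2-fold were within 2-fold of medium, with a median difference of 0.08. Other inhibitory receptor genes were nearer to medium, with Lag3 at 630 and 991 (0.65), Vsir, which encodes VISTA, at 820 and 1161 (0.50), and Btla at 1798 and 2223 (0.31).

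**Figure D3:**
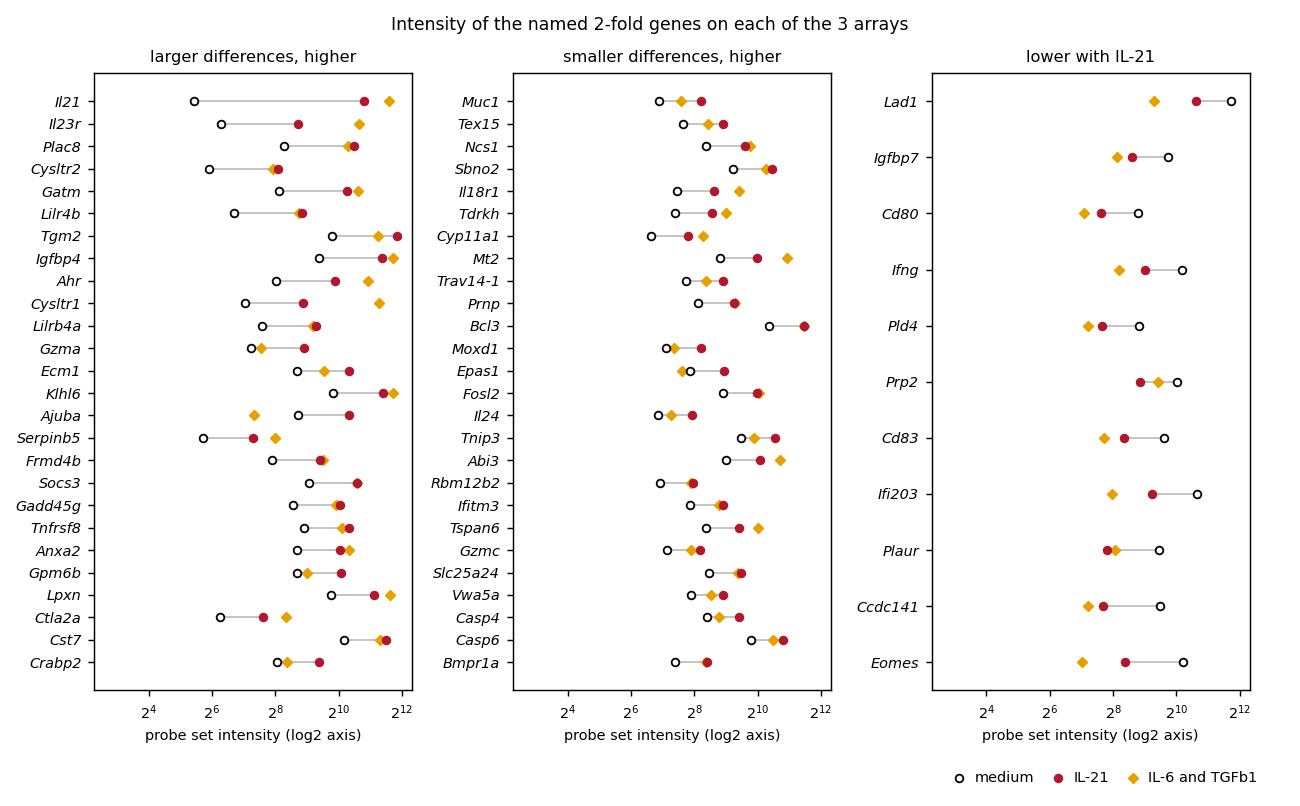
Intensity (log2 x axis) of the 52 higher and 11 lower named genes on the medium, IL-21 and IL-6 and TGFb1 arrays, 1 point each, with a grey line from medium to IL-21. Of the higher genes Il21 spans the widest range, and Ajuba and Epas1 are the ones whose third-array value lies below medium.

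The Th1 and cytotoxic genes split. Eomes, a T-box factor that drives cytotoxic and memory T cell genes, had the largest difference on the lower side, with intensities of 1180, 332 and 131 in medium, IL-21 and IL-6 with TGFb1. Tbx21, which encodes the related factor T-bet, read 2730 and 2842 (0.06). Granule genes differed in extent. Gzma, which encodes granzyme A, read 149, 480 and 189, Gzmc 141, 289 and 238, and Gzmb 2460, 4818 and 3430. Gzmb lay just under the line at 0.97, and Prf1, which encodes perforin, read 242 and 363 (0.58). Nkg7, a granule membrane protein gene, was at 2259 and 2291 (0.02), and Srgn, which encodes the granule proteoglycan serglycin, at 10252 and 11314 (0.14). Gzmk (83.5 and 76.9) and Gzmm (151 and 147) were below the brightness filter. Cst7, a cysteine protease inhibitor of cytotoxic granules, read 1145, 2885 and 2505. The chemokine receptor gene Cxcr3 read 684 and 1340 (0.97). The chemokine gene Ccl3 read 4915, 2465 and 1277, just short of 2-fold lower. Of 26 compared genes here, 4 passed 2-fold upward and 2 downward, and 7 and 4 passed 1.5-fold.

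Genes of other helper lineages were examined by the same counts. Of 15 compared Th2 genes 2 were at least 2-fold and 5 at least 1.5-fold higher, and none was 1.5-fold lower, with a median of 0.34. The largest was Ecm1, an extracellular matrix protein that Th2 cells use to leave lymph nodes, at 408, 1292 and 745. Gata3, the lineage factor, read 1513 in medium and 2451 with IL-21, against 453 on the third array. Of 21 Th17 genes 4 were at least 2-fold higher, which were Il21, Il23r, Ahr and Il24, and none was 1.5-fold lower. Il24 is also on the Th2 list, and Il21, Il23r and Ahr are also on the STAT3-associated list. The counts of these lists therefore overlap and are not separate results. The cytokine gene Il17a, which defines the lineage, read 175, 125 and 193 (-0.48), and the chemokine receptor gene Ccr6 263, 183 and 446 (-0.52). Ahr, a receptor for environmental and dietary ligands, read 262, 941 and 1950. Its target Tiparp was higher by less than 2-fold (398 and 613), and its targets Cyp1a1 (112 and 103) and Ahrr (99.6 and 90.0) were below the brightness filter. Maf, at 273 and 296, and Il17f, at 160 and 185, stayed close to medium, whereas the third array gave 1865 and 1896. Rora read 298, 475 and 1036. Among 19 regulatory T cell genes 11 were above 0, near the 59.8% of all compared genes, and 8 were below, with a median of 0.01. Of these 3 were at least 1.5-fold lower, namely the lineage factor Foxp3, at 997 and 629 (-0.66), and the surface genes Nrp1 (485 and 303) and Lrrc32 (1214 and 765), and 1, Lag3, was at least 1.5-fold higher.

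Of the 12 lower genes 3 encode surface proteins tied to activation, a grouping made after the values were seen. Plaur is not on the costimulatory and activation list, and the activation receptor gene Tnfrsf8 went the other way (1.43). Cd83, a surface glycoprotein of activated lymphocytes and dendritic cells, read 788, 327 and 211. Cd80, a ligand of CD28 and CTLA-4, read 444, 198 and 135, while its other probe set read 190 and 139 (-0.45). Plaur, the urokinase receptor, read 694, 225 and 268. The 27 compared costimulatory and activation genes also had members on the other side, with Slamf7 at 524 and 920 (0.81) and Cd28 at 3945 and 5248 (0.41). Of these genes 3 passed 1.5-fold upward and 3 downward, and 2 of the latter passed 2-fold. Early response genes of the antigen receptor likewise diverged: Egr2 read 890 and 1405 (0.66) and Ier3 166 and 301 (0.86), whereas Nr4a3 read 2496 and 1609 (-0.63) and Irf8 5668 and 3977 (-0.51). Trat1, an adaptor of the antigen receptor, read 2803, 1560 and 665.

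The remaining genes on the lower side had varied roles. Ccdc141, a coiled-coil protein gene, was measured by 5 probe sets, which all passed 2-fold, from -2.20 to -1.42. Ifi203, of the interferon-inducible p200 family, read 1619, 602 and 251. Of the 32 compared genes on the interferon response list, which does not hold Ifitm3, it alone was past 2-fold, and the median of that list was -0.01, or 0.06 after centring the arrays and -0.12 after quantile normalization. Lad1, a protein of epithelial anchoring filaments, was the brightest of the lower genes, at 3401, 1571 and 621. Igfbp7, an insulin-like growth factor binding protein gene, read 851, 389 and 281, and Pld4, an endolysosomal nuclease gene, 454, 199 and 148. Prp2, a proline-rich protein gene, read 1043, 457 and 679. Some of these lower genes are also made by cells other than T cells. Of 12 dendritic cell markers 6 reached the array median in medium and 5 with IL-21, with summed intensities of 3575 and 3736, and of 11 stromal, epithelial and endothelial markers 6 did so in both, with sums of 2640 and 2332. The part of such cells in these differences was not tested.

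Secreted and calcium-dependent binding proteins included several of the largest gains. Tgm2, a transglutaminase that crosslinks proteins, read 876, 3699 and 2424 and was higher with IL-21 than on either other array. Igfbp4, another insulin-like growth factor binding protein gene and the opposite in direction to Igfbp7, read 673, 2658 and 3354. Anxa2, a membrane-binding annexin, read 407, 1062 and 1291. The related Anxa5 (2891 and 4124) and the S100 gene S100a6 (159 and 290) were higher by less than 2-fold. Also higher were the retinoic acid binding protein gene Crabp2, at 266, 665 and 332, and the mucin gene Muc1, at 120, 299 and 192. Neither is on the list of insulin-like growth factor binding, annexin, S100 and transglutaminase genes. Of the 15 compared genes on that list 3 passed 2-fold upward and 1 downward.

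Protease inhibitors were higher in part. Serpinb5, a serpin gene, read 52.4, 156 and 255, from a medium value under that percentile, and its difference of 1.55 became 1.16 with the same floor. Ctla2a, an inhibitor of cathepsins, read 75.9, 196 and 321. Of 29 compared protease and inhibitor genes 3 passed 2-fold and 8 passed 1.5-fold on the higher side, and 1 and 2 did so on the lower, where Plaur (-1.62) was the largest. Serpinc1, which encodes antithrombin, was the other lower gene, at 359 and 202 (-0.82).

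Several genes past 2-fold act in signalling or the cytoskeleton, a grouping made after the values were seen. Klhl6, an adaptor of a ubiquitin ligase in lymphocytes, read 904, 2716 and 3394, and Gadd45g, a stress-kinase activator, 374, 1059 and 958. Tnip3, a binding partner of the NF-kB inhibitor A20, read 718, 1498 and 943. Lpxn, a focal adhesion protein of leukocytes, read 871, 2235 and 3166, and Abi3, a regulator of actin, 519, 1075 and 1660. Ajuba, a LIM domain scaffold, read 423, 1272 and 162, so the IL-21 array was the highest of the 3 and the third array the lowest. Epas1, which encodes the hypoxia factor HIF-2 alpha, read 233, 494 and 198, and Gpm6b, a membrane glycoprotein gene, 415, 1081 and 508. Frmd4b (1.53) and the calcium sensor gene Ncs1 (1.25) were higher as well.

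Plac8, a small cysteine-rich protein of lymphoid and myeloid cells, was the gene with the third-largest difference, at 309, 1430 and 1244. Gatm, the enzyme that begins creatine synthesis, read 278, 1228 and 1578, and it was the only 1 of 12 compared creatine, arginine and polyamine genes past 1.5-fold. The 4 metallothionein genes, which bind zinc and copper, differed among themselves. Mt2 read 455, 1005 and 1950, and Mt1 read 711, 1307 and 1377 (0.88). Mt3 was at 390 and 322 (-0.27), and Mt4, at 140 and 123, was below the brightness filter. The caspase genes Casp4 (340 and 686) and Casp6 (892 and 1797), the mitochondrial carrier gene Slc25a24 (350 and 711) and Vwa5a (238 and 481) lay between 1.01 and 1.02. The prion protein gene Prnp (1.12), the interferon-inducible membrane protein gene Ifitm3 (1.05), Tspan6 (1.04) and the steroid-synthesis enzyme gene Cyp11a1 (1.16, from a dim 99.6) were also past 2-fold. So were Tdrkh (1.17) and Tex15 (1.28), which are known from germ cells, Moxd1 (1.10) and Rbm12b2 (1.05). The difference of Rbm12b2 was 0 when probe sets with several symbols were added and a brighter one stood for the gene. A single T cell receptor variable gene, Trav14-1, was named by the rule at 1.14, and its other probe set gave 0.35.

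Transcription factor families were mostly close to medium. Fosl2, a partner of Jun proteins in AP-1, read 481, 1018 and 1066 and was the only 1 of 19 compared AP-1, ATF and BATF genes past 1.5-fold. Bcl3 was likewise the only 1 of 15 NF-kB genes past 1.5-fold on the higher side. Id2, an inhibitor of E proteins, differed by 0.79 and was the only 1 of 13 genes of that list past 1.5-fold. Of 25 naive and quiescence genes 1 passed 2-fold and 2 passed 1.5-fold upward, and 3 passed 1.5-fold downward, including the zinc finger factor gene Klf3 (-0.72). Of 33 T cell receptor signalling genes 1 passed 1.5-fold upward, the adaptor gene Themis (0.70), and 1 downward, Trat1. Of 15 antigen presentation genes 1 passed 1.5-fold, the class II gene H2-Ab1 (0.59), at 317 and 478.

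Just inside the line on the higher side lay Bmpr1a, Casp6, Casp4, Vwa5a and Slc25a24, and just outside it Castor1, Mlkl, Ctso and Ms4a6d, all at 0.99, and Itga3 at 0.98. On the lower side Lad1, Igfbp7, Cd80, Ifng and Olfr767 were just inside, from -1.17 to -1.11, and Ccl3, Tns1 (-0.98), Atp1b1 (-0.98), Tnfsf11 and Trat1 (-0.84) just outside. Tns1 had 6 probe sets, whose differences ran from -0.98 to 0.01.

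Metabolic lists differed in how many members passed 1.5-fold. In the glycolysis and hypoxia list 32 of 36 genes were above 0, against 59.8% of all compared genes (36.0% to 75.3% by brightness). In that list 4 genes passed 1.5-fold and none 2-fold, with a median of 0.22. The lactate transporter gene Slc16a3 read 1933 and 3431, the mitophagy receptor gene Bnip3 957 and 1867, the aldolase gene Aldoc 492 and 888, and the lactate dehydrogenase gene Ldhb 401 and 691. The cholesterol and fatty acid list had 27 of 32 genes above 0 and 5 exactly equal, but its highest member, the elongase gene Elovl6, differed by 0.30 only. Amino acid response genes lay within -0.24 and 0.18. None of the 47 cell cycle genes passed 1.5-fold, and their median was 0.08. The ribosomal protein list had a median of 0.00 and the respiratory chain list 0.01, and no member of either passed 1.5-fold. Of the 39 lists, 15 had a median that was 0 or took another sign when arrays were centred or quantile normalized, so no direction is read from the medians of those lists.

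**Figure D4:**
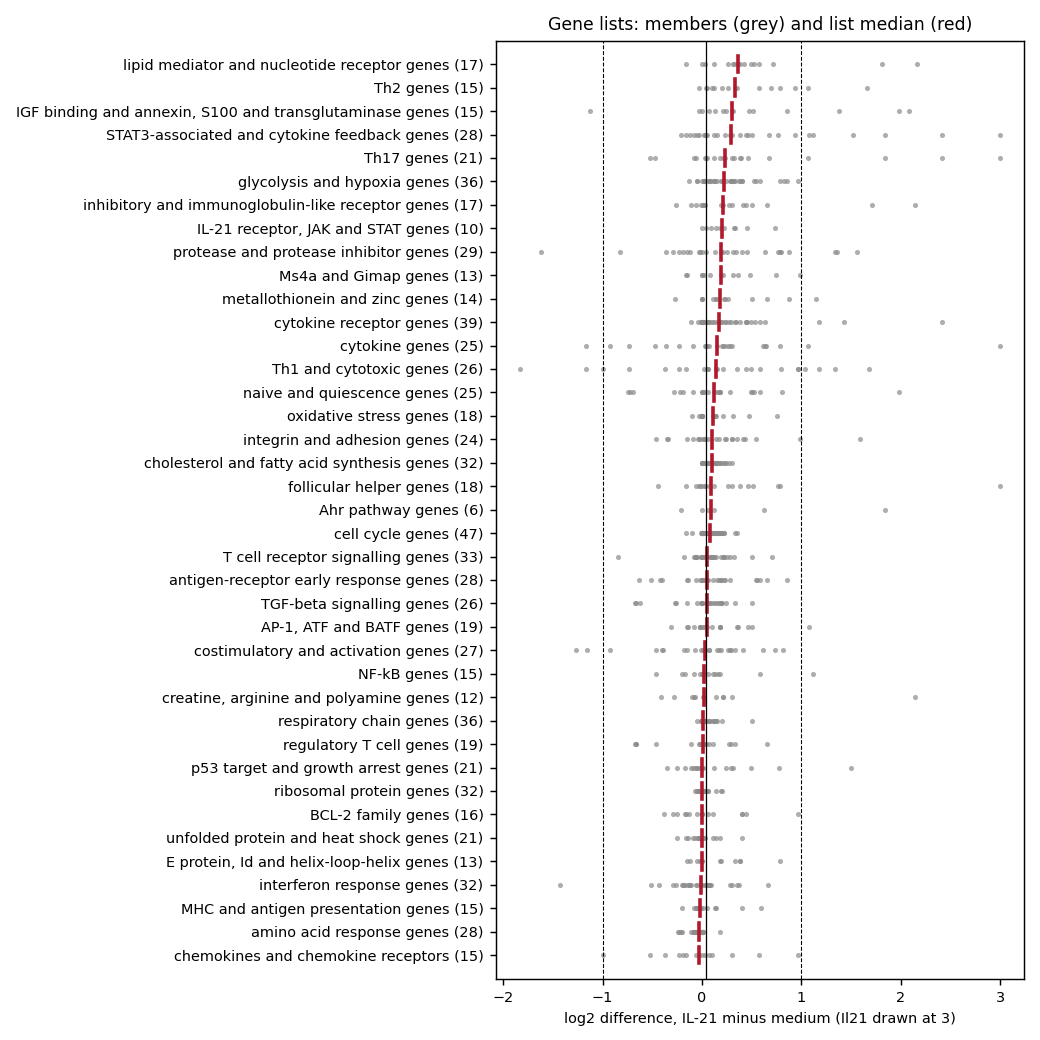
Log2 difference between IL-21 and medium (x axis) of the compared members of 39 gene lists, 1 grey point per gene, with the list median in red, the median of all compared genes (0.04) as a solid line and dashed lines at 2-fold. The number of compared genes stands after each name, and the medians run from -0.03 to 0.37.

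On the linear scale, where bright genes count most, other names led. The largest gain of intensity belonged to Satb1, a chromatin organizer of T cells, from 5422 to 9479 (0.81), a gain of 4056. It was followed by Tgm2 (2823), Gzmb (2358), Chmp4b (2097), Chd7 (1999) and Igfbp4 (1985). Chd7, a chromatin remodeller, had 30 probe sets, whose differences ran from 0.12 to 1.42. The largest losses were those of Ccl3 (-2450), Lad1 (-1831), Irf8 (-1691), Dapl1 (-1588) and the muscle-type enolase gene Eno3 (-1391).

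The higher genes were dimmer in medium than the bulk of compared genes. Of all compared genes 96.8% lay at or above the array median in medium, with a median intensity of 716 there. In medium 19 of the 53 higher genes lay below the array median, and with IL-21 only 1 did, Serpinb5. All 12 lower genes were above the array median on both arrays, which in medium is near the share of all compared genes. The lower genes had median intensities of 819 in medium and 330 with IL-21. This pattern is shaped by the brightness filter and by choosing genes on their difference, so it is not read as a result. A gene dim in medium could enter only through a treated array. A gene at least 2-fold lower is by definition brighter in medium than with IL-21. Of the higher genes 14 were at least 3-fold and 7 at least 4-fold higher, and of the lower genes 3 were at least 3-fold lower. Over all compared genes 59.8% of differences were above 0, 28.6% below and 11.6% exactly 0, and 96.2% were within 0.5. With genes cut into 4 equal sets by brightness, 36.0% were above 0 in the dimmest set, against 73.9% in the next, so small differences follow brightness and are not read here gene by gene. The share was 75.3% in the third set and 54.1% in the brightest. Lists were not matched for brightness, so the 59.8% set beside some of them is a rough scale. Only 4 of the 65 genes past 2-fold had another probe set. All 7 of those other probe sets had the same sign as the main one, and 4 of them, all of Ccdc141, passed 2-fold.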

How the data were processed

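RNA from 3 cultures, 1 array each, was labelled with an Affymetrix whole-transcript kit, per the labels' protocols. The deposited table holds probe set intensity values on a linear scale, from 25.5 to 20652. How the authors summarized and normalized them was not given in the sources used here, and mm8 is the build named, per the submitters' processing notes. Exactly 19.1% of probe sets had equal values on the medium and IL-21 arrays. Of 28815 probe sets 21780 had 1 symbol in the platform annotation. Of these, 21689 matched RefSeq genes (GRCm38.p6, used for names and neighbours). The unit log2(intensity + 1) was computed from the deposited values with Python 3.11.15 and pandas 2.3.3, and the brightest probe set was the one with the highest mean log2 value. No test was possible with 1 array per group. Array number limits the precision.

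The genes named were all past 2-fold (without provisional symbols, small RNAs and olfactory receptors), up to 4 members of each list with the largest differences, 5 genes on each side of each 2-fold line, the 10 largest linear gains and losses, neighbours past 2-fold, genes with disagreeing probe sets and a fixed set. Mki67, Top2a, genes of roles and other list members were named after their values were seen. Members and lists were chosen with earlier results of these data known. The calculation was tested on simulated data.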

Additional observations from a re-analysis of the deposited data

Results flagged for a closer look

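Probe sets without exactly 1 gene symbol were left out of the comparison. Of the 2825 bright enough, 6 were at least 2-fold higher with IL-21 than with medium and 1 was at least 2-fold lower. Among the 11003 compared genes the counts were 53 (0.482%) and 12 (0.109%), which are larger shares. Of the higher probe sets 5 had no symbol listed and 1 had several. The largest difference among them was 1.87, from an intensity of 187 to 686, with 707 on the IL-6 and TGFb1 array. The next were 1.75 (195 to 658) and 1.75 (140 to 471). Their genes were not identified here.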

How the results depend on the processing

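The counts of 53 higher and 12 lower genes were recomputed under 10 alternatives. They fell to 27 and 7 with the stricter brightness filter at the 75th percentile, which left 26 of the higher and 5 of the lower genes uncompared. Under the other alternatives they lay between 45 and 68 and between 11 and 15, the highest being 68 when arrays were centred and 15 with quantile normalization. The median difference of all genes was 0.10 when centred and -0.01 after quantile normalization. No gene past 2-fold changed sign, and 39 of the 53 and 11 of the 12 stayed past 2-fold wherever they were compared. The others include Socs3 and Cd80, through their dimmer probe sets, and Casp4, Casp6 and Vwa5a with log2(value + 16) or quantile normalization. Gzmb (1.04), Cxcr3 (1.03) and Bnip3 (1.03) passed when centred, and Ccl3 (-1.01) after quantile normalization. Of 390 recomputed list medians 25 moved by more than 0.07, the median gap between probe sets of a gene. These belonged to 20 of the 39 lists, and 19 lists had no moved median. Centring the arrays shifted every list median by the same 0.066, below that limit, so it could move none. No paired analysis was possible because each group has 1 array.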
